A study of Mus musculus with 2 samples.

Results

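Neurotransmitter receptor genes were compared between 2 arrays of dissected mouse retina at postnatal day 12, 1 labelled wild type and 1 labelled Samd7 knockout (Samd7 KO in the labels). Samd7 encodes a sterile alpha motif protein made by photoreceptors. The labels name no strain, sex or number of animals per RNA sample, nor the part of Samd7 that was deleted. Receptor genes were chosen by name alone: glutamate, GABA, glycine, nicotinic, muscarinic and serotonin receptor symbols, reached through the RefSeq transcript that a probe was designed on. The name rule found 81 genes among 21367 named ones, after 1 metabotropic glutamate receptor gene that the rule leaves out. Of these, 80 encode receptors, measured by 110 probes, and Grid2ip, a scaffold protein of the delta receptor, matched by name only.

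Retinal signals pass from photoreceptors to bipolar cells and on to ganglion cells through glutamate, while horizontal and amacrine cells shape them through GABA, glycine and acetylcholine. Ionotropic receptors are ion channels built of several subunits and act fast; metabotropic and muscarinic receptors, and all serotonin receptors but the type 3 channel, act through G proteins. Rods and cones release glutamate in the dark, so each class of second-order neuron is defined in part by the glutamate receptor it carries.

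All values are log2 processed signals relative to the array's own 75th percentile, and all differences are the knockout-labelled minus the wild-type-labelled array. With 1 array per group there is no test and no spread between animals. The only error at hand is technical: the SD of the difference over probes printed in several spots. It was 0.33 for signals below -4, 0.19 between -4 and -2, 0.09 between -2 and 0, and 0.05 above that. This SD covers spots within these 2 arrays, not RNA preparation, labelling or hybridisation. The targeted gene went against its label, with Samd7 at 4.68 on the array of the wild type and 6.47 on that of the knockout. Where the probe lies relative to the deleted part is not known here, so every direction rests on the labels alone. No spot was saturated, and 60.3% of spots (wild-type label) and 60.9% (knockout label) were well above background. In whole tissue, fewer cells of a type and less RNA per cell cannot be told apart.

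Most receptor genes had nearly the same signal on both arrays, and 4 stood apart by at least 2-fold. The GABA receptor subunit Gabrr3 and the NMDA receptor subunit Grin2c were higher on the knockout-labelled array, 3.90-fold and 3.06-fold. The serotonin receptors Htr2a and Htr4 were lower, 4.70-fold and at least 7.61-fold. These sizes depend on the processing: with normexp background correction Htr2a came to 2.14-fold and Htr4 to at least 2.14-fold. With the mean over probes Htr4 came to at least 1.49-fold, again as a bound. Of the 80 receptor genes, 67 were well above background on both arrays, Htr4 on the wild-type-labelled array only, Htr5b on the knockout-labelled array only, and 11 on neither. Across those 69 the 2 genes higher make 2.90%, against 1.57% of all 15947 named genes above background, and the 2 genes lower make 2.90%, against 1.37%. Each share rests on 2 genes. At 1.5-fold there were 5 higher (7.25%, against 2.96%) and 3 lower (4.35%, against 3.2%). These added Chrm3, Htr1d and Htr3a on the higher side and Chrnb1 on the lower side, but with normexp Htr1d, Htr3a and Chrnb1 were under 1.5-fold. The median difference of the receptor genes was -0.05, and that of all named genes -0.02. Among receptor genes measured on both arrays, 55 of 67 (82.1%) lay within 0.25 of 0, against 84.0% of all named genes.

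**Figure D1:**
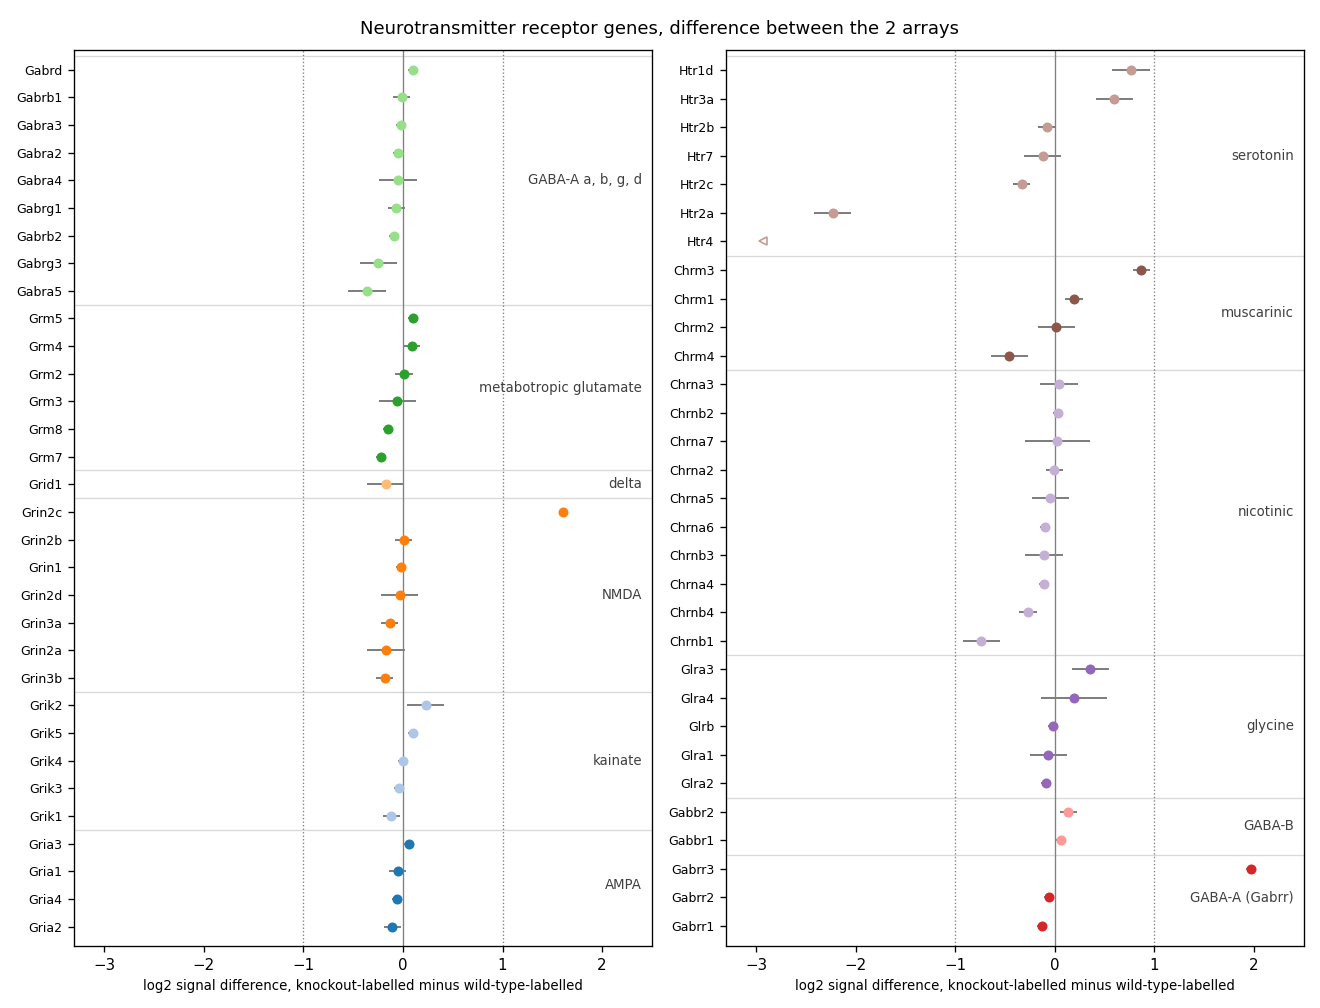
Difference in log2 signal (knockout-labelled minus wild-type-labelled array) for each receptor gene that was above background and is reported here, grouped by class, with bars of 1 technical SD, dotted lines at 2-fold and an open triangle for a bound. Gabrr3 (1.96) and Grin2c (1.61) lie beyond 2-fold on the right, Htr2a (-2.23) and Htr4 (at most -2.93) on the left, and the other genes between the dotted lines.

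**Figure D2:**
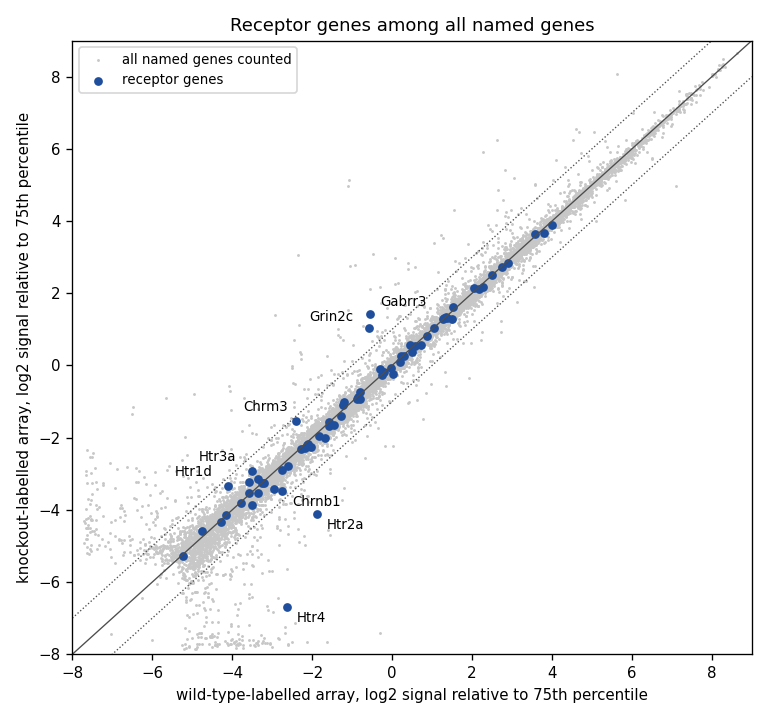
Log2 signal of every named gene above background on the x axis for the wild-type label and on the y axis for the knockout label, relative to each array's 75th percentile, with receptor genes in blue. Dotted lines mark 2-fold, and the 8 receptor genes at least 1.5-fold apart are named.

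The subunits of the Gabrr genes form GABA-gated chloride channels of bipolar cell terminals, and 1 of the 3 genes was over 2-fold apart. Of all named genes, 1.57% were at least 2-fold higher and 1.37% lower. For Gabrr3 the wild-type-labelled array gave -0.54 and the knockout-labelled one 1.42, or 394 against 1482 scanner units. Its other probe went from -3.13 to -1.24, so the differences were 1.96 and 1.89, with technical SDs of 0.05 and 0.19. Both probes were designed on transcript NM_001081190. The other Gabrr genes lay side by side on chromosome 4 and close to level: Gabrr1 had 3.80 and 3.67, a difference of -0.13, and Gabrr2 1.37 and 1.30, a difference of -0.06.

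Gabrr3 also had neighbours that were higher. On its downstream side in RefSeq gene order on chromosome 16 came Riox2, a ribosomal oxygenase (1.14 and 2.59, difference 1.45), Crybg3 (1.35 and 2.22, difference 0.86), the Bardet-Biedl gene Arl6 (4.45 and 4.84, difference 0.38, with 0.46 in its other probe) and the ephrin receptor Epha6 (difference 0.26). The differences thus became smaller from gene to gene in that order. On the other side Olfr209 was at -0.10, and Olfr206, Olfr205 and Olfr204 were not well above background on either array. The neighbours were looked at after the values of the receptor genes were seen. Among 213 genes at least 2-fold higher that have a protein-coding neighbour above background, 42 (19.7%) had a neighbour that was also at least 2-fold higher. Among 166 such genes at least 2-fold lower, 6 (3.61%) had a neighbour 2-fold lower. The 213 include Gabrr3 and Riox2, and adjacent genes of the same family were not set aside. The share of all named genes with a 2-fold higher neighbour was not computed.

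**Figure D3:**
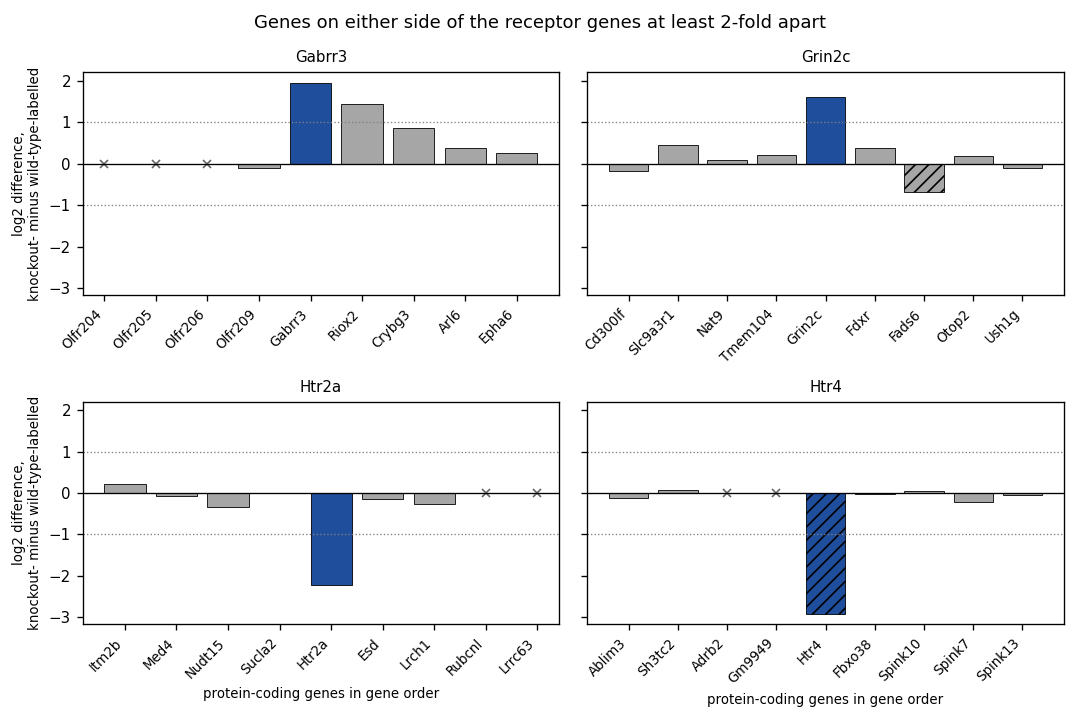
Log2 difference (knockout-labelled minus wild-type-labelled array) of each receptor gene at least 2-fold apart (blue) and of the 4 protein-coding genes on either side in gene order (grey), with hatching for bounds, crosses for genes not measured and dotted lines at 2-fold. Riox2 and Crybg3 next to Gabrr3 stand at 1.45 and 0.86, whereas no gene shown beside Grin2c, Htr2a or Htr4 reaches 2-fold.

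The sequences of the start regions are shown for Gabrr3, Grin2c and Htr2a, receptor genes at least 2-fold apart in opposite directions. Each line holds the 250 bases before the annotated start, 5′ to 3′ on the gene's strand, from RefSeq on GRCm38.p6. They lie at chr16:59407132-59407381 (+), chr11:115267244-115267493 (-) and chr14:74640624-74640873 (+). Capitals mark AGGTCA on either strand, the half-site of many nuclear receptors.
Gabrr3: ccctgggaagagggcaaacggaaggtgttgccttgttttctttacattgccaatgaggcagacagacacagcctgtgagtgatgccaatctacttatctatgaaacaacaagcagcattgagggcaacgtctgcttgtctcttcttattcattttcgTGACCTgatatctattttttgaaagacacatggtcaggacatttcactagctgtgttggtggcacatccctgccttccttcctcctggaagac
Grin2c: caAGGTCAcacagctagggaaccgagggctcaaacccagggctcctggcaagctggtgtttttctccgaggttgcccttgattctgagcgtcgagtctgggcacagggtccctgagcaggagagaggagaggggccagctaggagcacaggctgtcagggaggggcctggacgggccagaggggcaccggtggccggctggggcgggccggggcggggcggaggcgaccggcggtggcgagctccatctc
Htr2a: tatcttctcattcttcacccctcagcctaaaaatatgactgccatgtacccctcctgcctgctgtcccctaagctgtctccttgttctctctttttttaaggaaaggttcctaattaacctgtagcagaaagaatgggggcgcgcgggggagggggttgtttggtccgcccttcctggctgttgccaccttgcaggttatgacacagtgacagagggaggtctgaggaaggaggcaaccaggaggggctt
Gabrr3 had 1 such match, on the opposite strand and ending 87 bases before the start, Grin2c had 1, ending 242 bases before it, and Htr2a had none. The same window of 32851 RefSeq promoters held AGGTCA in 14.0% of cases, and that of 67 promoters of 57 receptor genes in 13.4% (9 promoters). TAATCC, the core of sites for CRX and OTX2, and TGCTGA, part of sites for the Maf family factor NRL, were in none of the 3 sequences shown, so no motifs overlap there. TAATCC was in 6.25% of all promoters and 5.97% of receptor promoters, and TGCTGA in 16.1% and 20.9%. Receptor promoters had a median of 8 CG dinucleotides in these 250 bases (range 0 to 42), against 6 over all promoters. The start of Gabrr3 had 3, that of Grin2c 15 and that of Htr2a 4.

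NMDA receptors are glutamate-gated channels that need an obligate subunit, Grin1, and 1 of 7 genes was over 2-fold apart. At 2-fold 1.57% of all named genes were higher and 1.37% lower. Grin2c, a regulatory subunit best known from cerebellar granule cells, had -0.57 on the wild-type-labelled and 1.04 on the knockout-labelled array, a difference of 1.61. In scanner units this was 386 against 1136, from 1 probe on transcript NM_010350, at a technical SD of 0.05. The protein-coding neighbours of Grin2c were Fdxr, at 0.39, and Tmem104, at 0.22 (-0.26 to 0.22 over its 3 probes). The obligate subunit itself was level, with Grin1 at 0.57 and 0.55 (difference -0.02). The other regulatory subunits were Grin2b (-1.58 and -1.57, difference 0.01), Grin2d (-0.03) and Grin2a (-3.37 and -3.54, difference -0.17). Grin3a lay at -0.13 and Grin3b, with -1.46 and -1.64, at -0.18. The class median of -0.03 came to 0.001 with another scaling, so it has no settled side.

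AMPA receptors carry most of the fast glutamate current, including that of OFF bipolar cells, and none of the 4 genes differed by as much as 1.5-fold. At that fold 2.96% of all named genes were higher and 3.2% lower, so this count does not set the class apart. Gria2, the subunit that makes the channel impermeable to calcium, had -1.28 and -1.39, a difference of -0.11. A dimmer Gria2 probe on another transcript had -4.02 and -3.47, a difference of 0.55 on the opposite side, at a technical SD of 0.19. Among receptor genes with several probes well above background on both arrays, no other gap was wider. The mean over both probes was 0.22. Gria4 had 2.89 and 2.83, Gria1 -0.03 and -0.08, and Gria3 0.21 and 0.28, with differences of -0.06, -0.05 and 0.06.

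Kainate receptor genes, which serve other OFF bipolar cells, ranged from -0.12 to 0.23. Grik1 was at -1.83 and -1.94 (difference -0.12), Grik3 at 0.29 and 0.25 (-0.04), Grik4 at 1.04 on both (0.001), and Grik5 at 2.06 and 2.16 (0.10). Grik2 had a difference of 0.23 in 1 probe and -0.11 in the other. Of the delta subunits, synaptic organisers related to these channels, Grid1 had -2.60 and -2.78 (-0.17).

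Metabotropic glutamate receptors lower or raise second messengers. None of their 7 genes reached 1.5-fold, where 2.96% of all named genes did on the higher and 3.2% on the lower side. The lowest were Grm7, with 1.51 and 1.29, and Grm8, with 0.71 and 0.56 (difference -0.15), both presynaptic receptors that lower release. These amount to 1.17-fold and 1.11-fold, at a technical SD of 0.05. Grm5, which acts through calcium release, had 0.46 and 0.56 (0.10). Grm2 (0.01), Grm4 (0.09) and Grm3 (-0.05) lay near 0. A second Grm4 probe, at -4.79 and not well above background on the knockout-labelled array, gave a bound of at most -0.77. With the mean over probes Grm4 stood at -0.48, on the other side of 0.

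GABA-A channels of alpha, beta, gamma and delta subunits are the main inhibitory receptors of amacrine and ganglion cells. None of their genes reached 1.5-fold in the probe that stands for it, where 2.96% of all named genes were higher and 3.2% lower. Of 13 genes, 12 were measured on both arrays, from -0.36 to 0.10 with a median of -0.05 (-0.05 to -0.01 over the alternatives). The highest was Gabrd, which serves tonic currents outside the synapse, with 1.51 and 1.61 (0.10). The lowest were Gabra5, with -3.50 and -3.86, and Gabrg3, with -2.02 and -2.27 (-0.25), both at a technical SD of 0.19. A dimmer Gabrg3 probe had -4.63 and -5.32, not well above background on the knockout-labelled array. Between them lay Gabra2 (-0.05), Gabra3 (-0.02), Gabra4 (-0.05), Gabrb1 (-0.01), Gabrb2 (-0.09) and Gabrg1 (-0.07). Gabra6, a subunit of cerebellar granule cells, was not well above background on either array.

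Several of these genes lie next to each other. On chromosome 5, Gabrg1 and Gabra2 ranged from -0.07 to -0.05 and Gabra4 and Gabrb1 from -0.05 to -0.01. The GABA-B receptor genes, whose products pair into 1 G protein-coupled receptor, were Gabbr1, with 3.59 and 3.65 (0.06), and Gabbr2, with -1.24 and -1.10 (0.14). The 3 probes of Gabbr2 gave -0.05 to 0.29.

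Glycine receptors, chloride channels under amacrine cell synapses, had 5 genes from -0.09 to 0.35. Glra1 had -2.14 and -2.21 (-0.07, with -0.29 in its other probe), Glra2 0.19 and 0.11 (-0.09), and the common beta subunit Glrb 1.35 and 1.33 (-0.02). Glra3 had -3.58 and -3.22, a difference of 0.35 at a technical SD of 0.19. Glra4 had -4.77 and -4.58 (0.19). Both are dim, and neither reached 1.5-fold.

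Nicotinic receptors, the acetylcholine-gated channels that drive early retinal waves, had 10 of 13 genes above background. Chrnb1, the beta subunit of the muscle-type receptor, stood lowest with -2.75 and -3.49, a difference of -0.74 or 1.67-fold at a technical SD of 0.19, and of -0.39 with normexp background correction. Of the 4 protein-coding genes on either side of Chrnb1, Tnfsf12 was also lower, with 1.79 and 0.61 (-1.17, and -0.55 in its other probe), while the adjacent Zbtb4 and Fgf11 were at 0.05 and 0.06. Chrnb4 came next in the class with 0.04 and -0.23 (-0.27). Its neighbours on chromosome 9, Chrna3 (-3.58 and -3.54, the highest of the class at 0.04) and Chrna5 (-0.05), were level. Chrna6 had 3.998 and 3.90 (-0.10), and the adjacent Chrnb3 was at -0.11. Chrna4 (-0.11), Chrnb2 (1.27 and 1.30, difference 0.03), Chrna2 (-0.01) and Chrna7 (0.02) completed the measured genes. The muscle subunit Chrna1, like Chrna9 and Chrna10 of the inner ear, was not well above background on either array. Of 7 muscle markers 4 were above background, while Ckm, Myh4 and Tnnt3 were not. The summed signal of all 7 was 0.736 and 0.743 times the 75th percentile, which follows the brightest markers. The median difference of the 4 above background was -0.17, with 3 below 0 and 1 above.

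Muscarinic receptors couple acetylcholine to G proteins, and Chrm3 was the 1 member over 1.5-fold apart (2.96% of all named genes were that much higher). It had -2.40 on the wild-type-labelled and -1.53 on the knockout-labelled array, a difference of 0.87 or 1.83-fold at a technical SD of 0.09. The 4 protein-coding genes on either side of Chrm3 ranged from -0.04 to 0.11. Chrm4, a receptor that lowers cyclic AMP, had -2.96 and -3.41 (-0.46), and Chrm1 -1.21 and -1.02 (0.19). Chrm2 was at 0.01, and Chrm5 was not well above background.

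Among serotonin receptors, 2 genes were at least 1.5-fold higher and 2 lower, where 2.96% and 3.2% of all named genes were, and with normexp only the 2 lower ones remained past 1.5-fold. Of 14 genes, 6 were above background on both arrays and 6 on neither.
Htr2a, which raises calcium through Gq proteins, had -1.89 on the wild-type-labelled and -4.12 on the knockout-labelled array, or 155 against 31.9 scanner units. The difference was -2.23 at a technical SD of 0.19, from 1 probe on transcript NM_172812. Normexp background correction, whose added offset shrinks the differences of dim probes, left -1.10, or 2.14-fold. Its neighbours Sucla2 (0.01) and Esd (-0.14) were near level, although another Esd probe gave 0.74.

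Htr4, which raises cyclic AMP through Gs proteins, had -2.63 under the wild-type label and -6.68, not well above background, under the knockout label. In scanner units this was 92.8 against 5.41. Against the lowest signal called well above background there, the difference was at most -2.93. A second probe on the same transcript, NM_008313, had -7.33 and -7.48 and was not well above background on either array, so the result rests on 1 spot per array. With the mean over both probes the difference was at most -0.58, or at least 1.49-fold, and with normexp at most -1.10. Both are again bounds. The probes of Htr4 thus disagree on whether the gene is detected at all.

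Htr1d, which lowers cyclic AMP, was higher with -4.11 and -3.34, a difference of 0.76 at a technical SD of 0.19, and the ion channel subunit Htr3a with -3.50 and -2.91, a difference of 0.59. Normexp brought them to 0.30 and 0.24. Of the 4 protein-coding genes on either side of Htr1d, Tcea3 was also higher, by at least 2.17 as a bound, while the adjacent Hnrnpr and Luzp1 were at -0.08 and -0.03. Htr2c was at -1.68 and -2.02 (-0.33), Htr7 at -0.12 and Htr2b at -0.08. Further Htr2c probes on the same transcript had -7.46 and -7.60, and -7.24 and -7.42, not well above background on either array. Htr5b was called above background on the knockout-labelled array only, with -5.23 and -5.28, and has no difference. Htr1a, Htr1b, Htr1f, Htr3b, Htr5a and Htr6 were not well above background on either array.

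**Figure D4:**
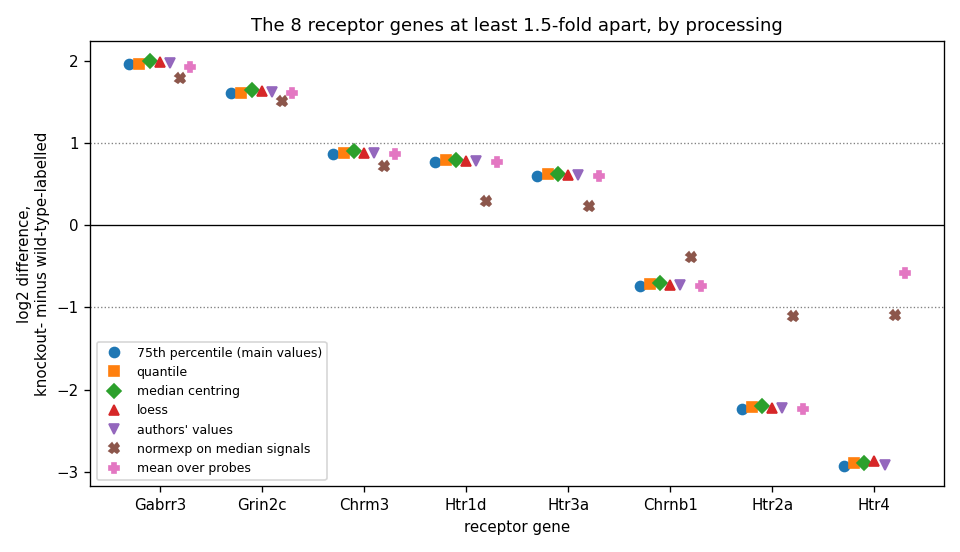
Log2 difference (knockout-labelled minus wild-type-labelled array) of the 8 receptor genes at least 1.5-fold apart under each normalization, with the authors' values and with the mean over probes, dotted lines marking 2-fold. Gabrr3 and Grin2c stay at least 2-fold higher throughout, Htr2a spans -2.23 to -1.10, and the bounds of Htr4 span -2.93 to -0.58.

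Genes for proteins that assemble, anchor or feed these receptors were read in 3 lists, with 1 gene at least 2-fold apart. Of all named genes 1.57% were at least 2-fold higher and 1.37% lower, so 1 gene does not set these lists apart. Among 31 measured glutamate receptor auxiliary subunits and scaffolds the median was 0.02 and none was 2-fold apart. Grip1, a PDZ scaffold of AMPA receptors, had 2.01 and 2.69 (0.68), and the AMPA receptor regulator Cacng7 was at 0.22. Its relative Cacng8 had -4.72 and -5.38 (-0.67), at a technical SD of 0.33. The knockout-labelled value lies close to the lowest signal called well above background there, -5.56. The synaptic organiser Cbln2 was at -0.17. For 16 inhibitory and cholinergic scaffolds and assembly factors the median was -0.03, from Gabarapl1 (-0.31) and Kctd12 (-0.14) up to Kctd8 (0.04) and Lynx1 (0.07), and none was 2-fold apart.

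The gene at least 2-fold apart was Tph1, among the 27 genes of transmitter synthesis and transport. Tph1, a tryptophan hydroxylase that starts the synthesis of serotonin, had -0.63 on the wild-type-labelled and -1.96 on the knockout-labelled array, a difference of -1.33 or 2.52-fold. The brain form Tph2 had -4.42 and -4.11 (0.31), and the serotonin transporter Slc6a4 was at least 0.29 higher by a bound. The glycine transporter Slc6a9 had 5.56 and 5.72 (0.16). The list median was 0.04.

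Marker genes were read beside these results. All 7 amacrine cell markers lay within 0.25 of 0 (summed signal 148 and 152 times the 75th percentile, wild-type-labelled first), as did all 5 of horizontal cells (27.6 and 27.0) and all 8 of ganglion cells (131 and 128). Of 10 bipolar cell markers 9 did (317 and 372), with Gng13 at 1.43. Müller glia markers summed to 163 and 184, with 5 of 6 within 0.25 of 0. Those of rods summed to 829 and 630, with all 8 below 0 (57.7% of all named genes were) and 1 of them at least 2-fold lower. Those of cones summed to 116 and 349, with 5 of 8 above 0 and 3 at least 2-fold higher. Each sum follows its brightest genes. Within 0.25 of 0 lay 4 of 8 rod markers (list median -0.22) and 4 of 8 cone markers (list median 0.18). Lens markers summed to 5.04 and 20.5, with 9 of 14 at least 2-fold higher and 1 not well above background. Pigment epithelium markers summed to 54.2 and 46.0, with 9 of 11 below 0 and Lrat not well above background. White matter markers summed to 8.81 and 9.22. The part of rod, cone, lens and pigment epithelium RNA in the differences of Gabrr3, Grin2c, Htr2a, Htr4 and Chrm3 was not tested.

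**Figure D5:**
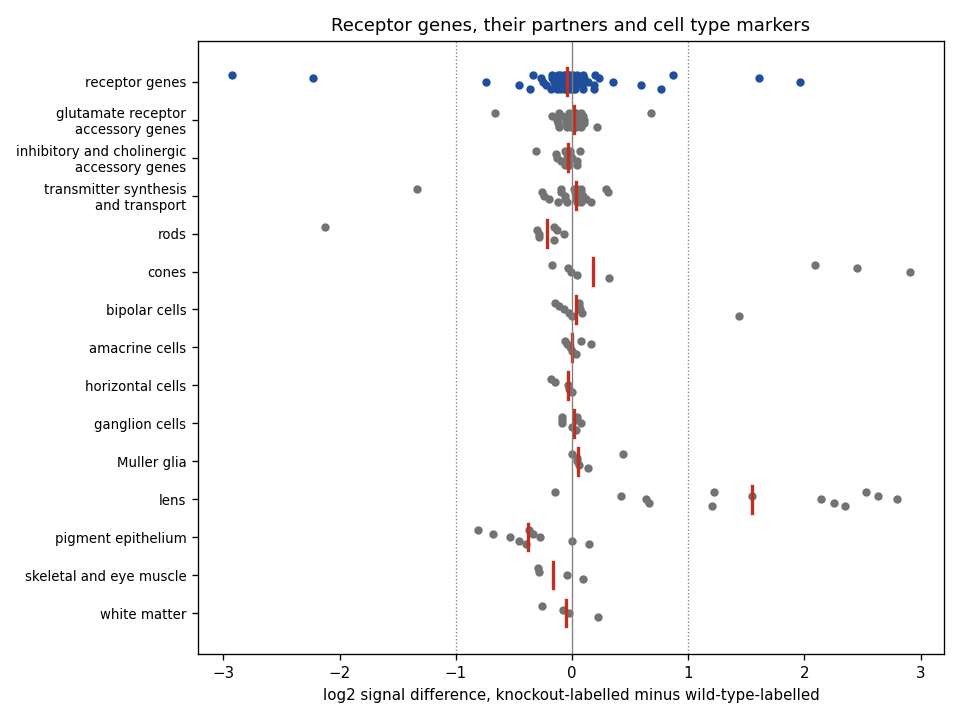
Log2 difference (knockout-labelled minus wild-type-labelled array) of each receptor gene, of its partner genes and of cell type markers, 1 point per gene above background, with the list median in red and dotted lines at 2-fold. Receptor genes have a median of -0.05, lens markers one of 1.55 and pigment epithelium markers one of -0.38.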

How the data were processed

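Total RNA of dissected retinas was amplified, labelled with Cy3 and hybridised to 1-colour Agilent arrays, per the labels' protocols. Scanner files hold linear intensity values as deposited, background-subtracted and detrended by Agilent Feature Extraction 11.5.1.1, per the file headers; probes were designed on mm9. The authors' deposited value table holds the same intensity times a constant per array, 1.31 and 1.37 on the log2 scale (column medians 108 and 106), with the rule behind it not given in the sources used. It served as an alternative.

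Of 59305 non-control spots per array, 119 and 163 with outlier flags were left out, on both arrays. Spots of a probe were averaged as log2 signal minus the array's 75th percentile. RefSeq accessions named 28330 of 55677 probes (GRCm38.p6 table, used for names and gene order). The brightest probe stood for a gene. Where 1 array was above background, the difference is a bound against the other array's lowest signal called above background.

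Named genes were all receptors, those 2-fold apart, the markers Htr2a, Gria2, Gabrr1 and Glra1, and the 2 highest and 2 lowest of each class and list. Genes with probes of opposite sign were named as such only where the probes lay far apart. Of 16 receptor genes with several probes above background on both arrays, 9 had probes of opposite sign, and not all of these are shown. Some genes that this rule names are not reported here. Members and lists were chosen with earlier results of these data known. Counting was tested on simulated data. R 4.3.3, limma 3.58.1 (normexp with an offset of 50, quantile, loess) and Python 3.11.15 were used. The number of arrays limits all precision.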

Additional observations from a re-analysis of the deposited data

How the results depend on the processing

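Gabrr3 ranged from 1.79 to 1.997, Grin2c from 1.504 to 1.64 and Htr2a from -2.23 to -1.10 over quantile, median and loess normalization, normexp, the authors' values and the mean over probes. Of 408 recomputed differences of 68 receptor genes, 25 moved by over the technical SD, 14 under normexp and 11 with the mean over probes. Median centring and the authors' values shift all differences by the same amount, below the smallest technical SD, so neither could move a value past it. The mean over probes could move only genes with several probes. The sign changed in 26 values of 14 genes, whose reported differences lie within 0.11 of 0, and in 0 of the genes 1.5-fold apart. With the mean over probes, Grm4 went from 0.09 to -0.48 and Gria2 from -0.11 to 0.22. The 2 genes at least 2-fold lower became 1 with the mean over probes and with genes above background on both arrays only, both without Htr4. With the mean over probes Htr4 has only a bound, of at most -0.58. The 2 lower genes became 4 with no filter on dim probes (with Htr1f and Chrna10, not well above background on either array) and 0 with only genes at or above the median signal. The 2 higher became 1 under that last filter, 5 at 1.5-fold and 0 at 4-fold. The filter on the median signal took out Grin2c, Htr2a and Htr4 for being dimmer than the median, whatever their difference. Under that filter, which left 22 receptor genes, the metabotropic glutamate median went from 0.01 to -0.15, with fewer genes entering. The other 104 class medians, the 9 medians of all receptor genes and the 27 of partner lists moved by less than the technical SD. The class medians of NMDA, kainate, glycine and metabotropic glutamate receptors took both signs. Over all named genes, normexp gave 125 higher and 45 lower against 251 and 218, no filter 579 and 671, genes above background on both arrays 160 and 94, and genes at or above the median signal 70 and 14. Signal over background limits the dim serotonin receptors most. Normexp used median signals, since no mean signals were in the scanner files used. No paired analysis was possible because there is only 1 array in each group.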
